A study of Mus musculus with 12 samples.

Results

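Of 18193 mouse genes measured in lung endothelial cells (ECs), 20 had a low signal at weeks 1 and 2 of lung metastasis and a higher signal both in healthy lungs and at week 3. They are genes of myeloid cells and platelets (Ccl6, Chil3, Ear3, Lgals3, Ppbp and Pf4), genes of contractile cells and of the extracellular matrix (Acta2, Actg2, Myl9, Col1a1, Col6a3, Loxl1 and Lamb1), 3 genes of secreted factors (Adm, Igfbp3 and Hp), and 4 others (Slc2a3, Knstrn, Pdzrn3 and Nt5dc2). The genes were selected by their values in these arrays. The mean at week 1 and the mean at week 2 each had to be at least 0.6 on the log2 scale below both the healthy mean and the week 3 mean, and every array of weeks 1 and 2 had to be below every healthy and week 3 array. The healthy mean also had to exceed the median of all values on the arrays, 8.13. Differences in which weeks 1 and 2 are set against healthy lungs or week 3 are therefore what chose the genes, and they are described here without a test. The differences between week 3 and healthy lungs and between week 2 and week 1 carried no condition, although they come from the same arrays, and these were tested.

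The 12 arrays hold 4 groups of 3 biological replicates, namely ECs of healthy lungs and ECs of lungs 1, 2 and 3 weeks after tail-vein injection of MDA-MB-231-LM2 cells (MDA-LM2), a human breast cancer line selected for growth in the lung. All mice were of the immunodeficient NSG strain, 6 to 8 weeks of age when injected, with age-matched healthy mice that received no cancer cells. NSG mice have no T, B or NK cells, and the study lists female mice only. ECs were taken from digested whole lungs by FACS as cells with CD31 and without CD45, CD11b, EpCAM, CD140a, CD140b or GFP, so they represent all ECs of the lung and not those of metastatic nodules alone. Whether an array holds RNA of a single mouse is not given in the sources used here.

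As background, ECs line the vessels of the lung, and the alveolar capillaries are a bed in which circulating platelets and leukocytes are held in close contact with the vessel wall. Around the vessels lie pericytes, smooth muscle cells and fibroblasts, which make most of the contractile proteins and fibrillar collagens, and alveolar macrophages lie on the other side of the thin barrier. Most of the selected genes are better known as products of those neighbors than of ECs. Of the 20, 13 encode proteins that are secreted, released or laid down in the matrix. This was assigned after the members were seen, and the share over all genes was not counted. In a bulk sample, fewer cells of a type and less RNA per cell cannot be told apart.

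The log2 signals lay between 5.27 and 14.1, and a difference of 1 on this scale is a doubling of signal. Pecam1, which encodes the sorting antigen CD31, lay between 13.40 and 13.53 in the 12 arrays, and Cdh5, which encodes VE-cadherin, between 13.25 and 13.59. Epcam lay between 6.95 and 7.49 and Itgam, which encodes CD11b, between 6.41 and 7.49, all below the median of all values. Ptprc, which encodes CD45, lay between 7.58 and 9.46. Pdgfra and Pdgfrb, which encode CD140a and CD140b, were above the median in spite of the sort. Pdgfra had group means of 11.91 (healthy), 10.42 (week 1), 10.31 (week 2) and 9.66 (week 3). Pdgfrb had 10.27, 8.59, 9.15 and 9.35 in the same order, and its lowest array, at week 1, was at 8.19, close to the median. No 2 arrays held identical values, and correlations between arrays were 0.961 to 0.983.

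The selection found few genes. Every week 1 and week 2 array was below every healthy and week 3 array in 58 genes with a healthy mean above the median (0.319% of 18193), and 20 of these also had the required size of difference (0.11%). The opposite order, with every week 1 and 2 array above, was found in 30 genes (0.165%). None of these met the rule turned round (0%), the closest being Tek, which encodes the angiopoietin receptor, with a smallest difference of 0.48. A peak at week 2 alone, by the same size and lack of overlap, was found in 2 genes, Lgals2 and Zbtb25 (0.011%). Over the 20 genes, the median log2 difference from healthy lungs was -1.26 at week 1 (range -2.04 to -0.74) and -1.13 at week 2 (range -1.85 to -0.62), against medians over all genes of 0.05 and 0.03. The week 3 means were above those of week 1 by a median of 1.19 (range 0.65 to 1.63) and above those of week 2 by a median of 0.87 (range 0.61 to 2.00). The lower mean was that of week 1 in 8 genes and that of week 2 in 12.

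**Figure D1:**
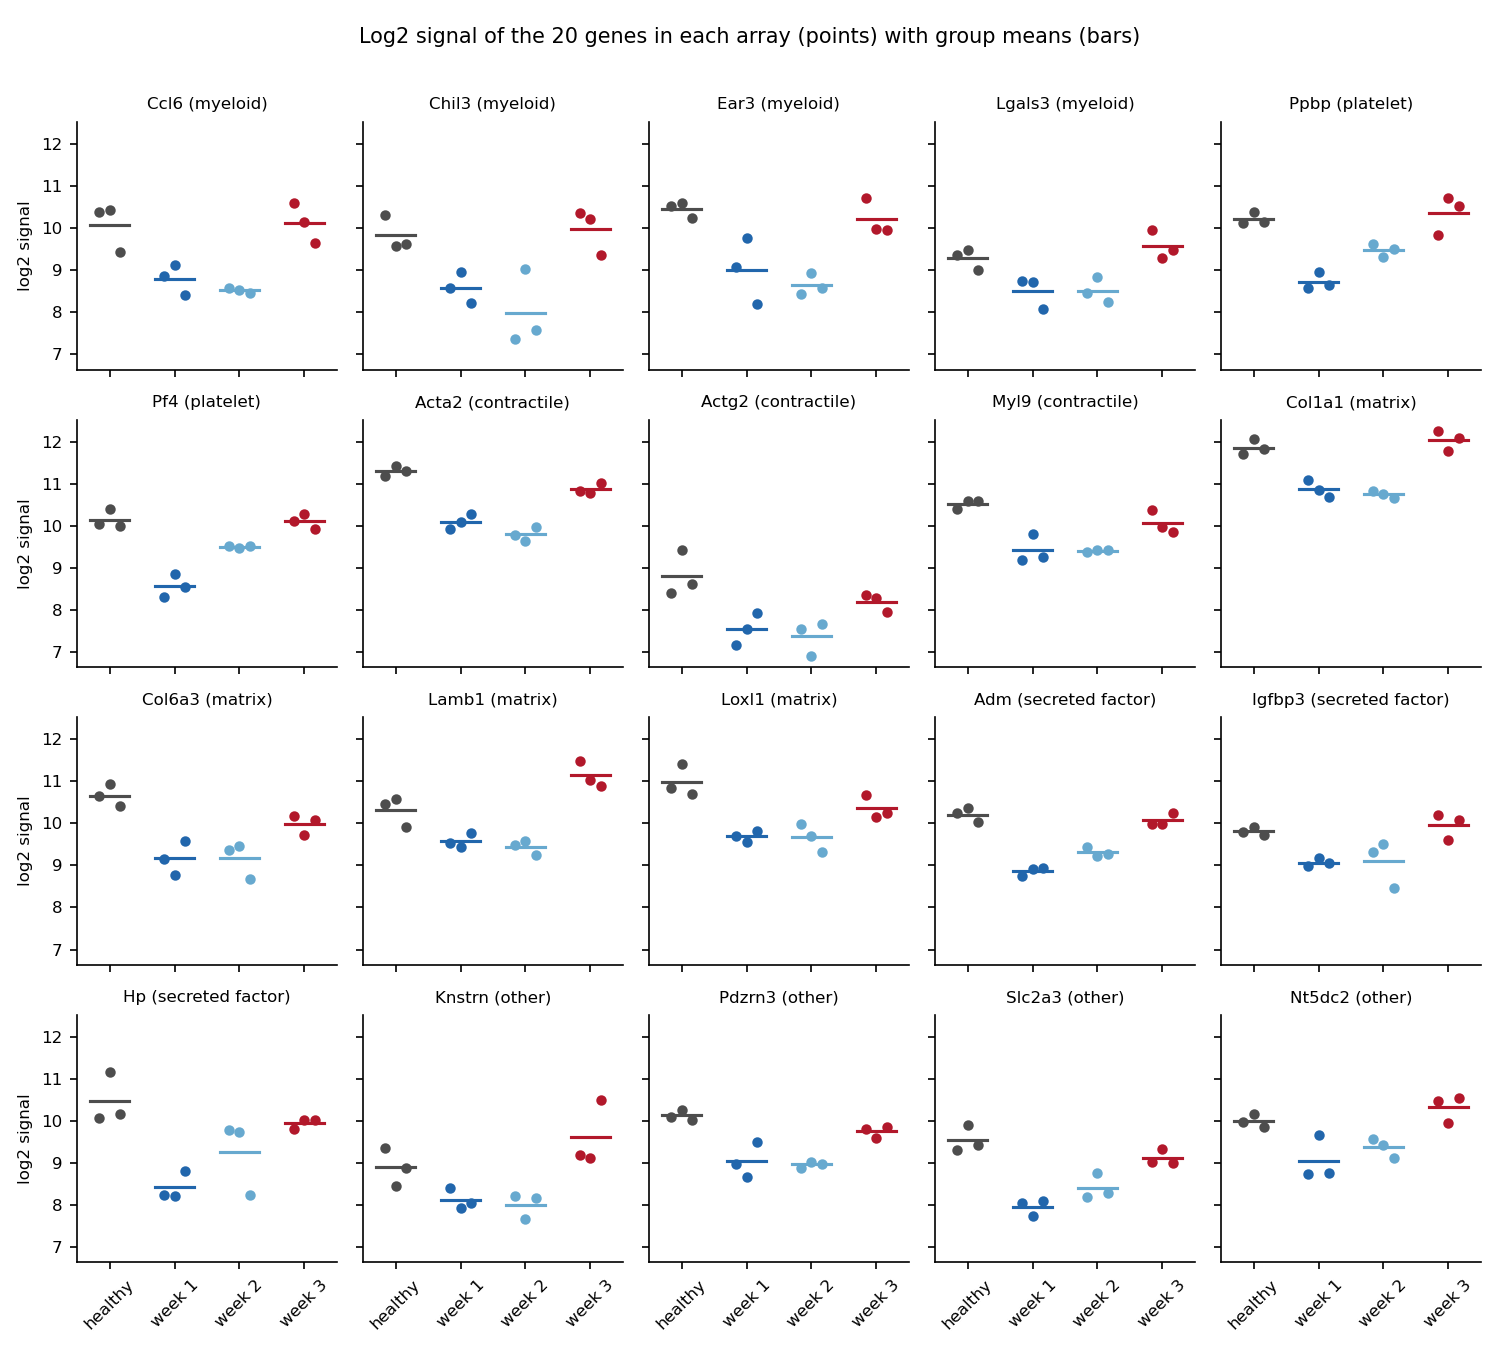
Log2 signal (y axis) of each of the 20 genes in healthy lungs and at weeks 1, 2 and 3 after injection (x axis), with 1 point per array and a bar at the mean of each group of 3. In every panel the 6 points of weeks 1 and 2 lie below the 6 points of healthy lungs and week 3, as the selection required, by a gap of 0.02 (Hp) to 0.62 (Col1a1).

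Of the 4 myeloid genes, Ccl6, Chil3 and Ear3 were the 3 members whose selecting differences were all 1.0 or more. Ccl6, which encodes a chemokine of macrophages and other myeloid cells, had log2 signals of 10.39, 10.44 and 9.44 in healthy lungs, 8.86, 9.14 and 8.41 at week 1, 8.58, 8.54 and 8.47 at week 2, and 10.60, 10.15 and 9.65 at week 3. The week 2 arrays were close together, whereas the third healthy array was about 1 unit below the other healthy arrays. Relative to healthy lungs the mean was 2.44-fold lower at week 1 and 2.95-fold lower at week 2. Chil3 encodes the chitinase-like protein Ym1, which alveolar macrophages and neutrophils secrete. It had log2 signals of 10.32, 9.57 and 9.63 in healthy lungs, 8.58, 8.95 and 8.23 at week 1, 7.37, 9.02 and 7.58 at week 2, and 10.38, 10.21 and 9.37 at week 3. Its week 2 arrays were spread most widely of all groups (SD 0.90), with the second array far above the other two. The mean was 2.39-fold lower at week 1 and 3.60-fold lower at week 2 than in healthy lungs, and week 3 was 3.99-fold higher than week 2.

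Ear3 encodes a ribonuclease of the eosinophil-associated family, and its probe set can also bind transcripts of close relatives in that family. Its values were 10.54, 10.61 and 10.24 in healthy lungs, 9.08, 9.76 and 8.21 at week 1, 8.44, 8.93 and 8.59 at week 2, and 10.72, 9.98 and 9.96 at week 3. The healthy arrays were tight, and the week 1 arrays spanned more than 1 unit. Relative to healthy lungs its log2 differences were -1.44 at week 1 and -1.81 at week 2. Lgals3 encodes galectin-3, a lectin that macrophages release in quantity. It had log2 signals of 9.37, 9.47 and 9.02 in healthy lungs, 8.75, 8.72 and 8.07 at week 1, 8.46, 8.84 and 8.24 at week 2, and 9.97, 9.30 and 9.49 at week 3. This was the smallest shift of the 4 myeloid genes, 1.71-fold lower at both weeks, and 2 of 3 week 3 arrays were above all healthy arrays. Averaged over the 4 myeloid genes, the week 1 and 2 arrays lay between 8.21 and 9.14, and the healthy and week 3 arrays between 9.58 and 10.42.

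Both platelet genes were lower at week 1 than at week 2, whereas 3 of the 4 myeloid genes had their lower mean at week 2. Ppbp encodes pro-platelet basic protein (CXCL7), a chemokine precursor of platelet alpha granules, and had log2 signals of 10.12, 10.38 and 10.14 in healthy lungs, 8.57, 8.96 and 8.66 at week 1, 9.63, 9.33 and 9.50 at week 2, and 9.84, 10.72 and 10.53 at week 3. Pf4 encodes platelet factor 4 (CXCL4), which is stored in the same granules, and had log2 signals of 10.05, 10.40 and 9.99 in healthy lungs, 8.32, 8.85 and 8.54 at week 1, 9.51, 9.47 and 9.53 at week 2, and 10.11, 10.28 and 9.94 at week 3. In both genes the 3 groups of week 1, week 2 and healthy lungs were fully separated, with week 2 in the middle. Relative to healthy lungs Ppbp was 2.80-fold lower at week 1 and 1.66-fold lower at week 2, and Pf4 was 2.98-fold lower at week 1 and 1.56-fold lower at week 2. The week 3 arrays of both genes overlapped the healthy arrays.

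Ppbp and Pf4 lie side by side on mouse chromosome 5 on the same strand, as members of 1 cluster of chemokine genes. Because they have the same course and neighboring promoters, both promoters are shown, from 250 bases before to 50 bases after the start site, as RefSeq gives them in build GRCm38.p6. Capitals mark exact matches to the TATA box (TATAAA) and the CArG box, the binding sequence of serum response factor, in Ppbp, and to a GATA motif (AGATAA) in Pf4, each searched on both strands.
Ppbp promoter, chr5:90768268-90768567, plus strand: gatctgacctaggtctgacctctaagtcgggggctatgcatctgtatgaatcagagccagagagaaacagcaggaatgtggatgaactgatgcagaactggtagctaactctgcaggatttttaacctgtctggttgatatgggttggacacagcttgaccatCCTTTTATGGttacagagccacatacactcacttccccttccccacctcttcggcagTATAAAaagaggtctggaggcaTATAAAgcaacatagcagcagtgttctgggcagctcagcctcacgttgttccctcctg
Pf4 promoter, chr5:90772185-90772484, plus strand: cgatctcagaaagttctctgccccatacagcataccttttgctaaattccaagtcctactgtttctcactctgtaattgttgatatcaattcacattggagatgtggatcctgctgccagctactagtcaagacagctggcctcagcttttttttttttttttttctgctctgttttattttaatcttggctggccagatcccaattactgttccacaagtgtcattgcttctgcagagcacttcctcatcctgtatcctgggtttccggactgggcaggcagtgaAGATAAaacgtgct
TATAAA was found in 13.6% of all 32851 promoters of this length, AGATAA in 11.2% and the CArG box in 1.63%. Ppbp had no AGATAA and Pf4 had neither TATAAA nor a CArG box in these windows. A match is a stretch of letters and not a measured site.

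The 3 contractile genes encode parts of the smooth muscle apparatus. Acta2, which encodes smooth muscle alpha-actin, had log2 signals of 11.19, 11.43 and 11.31 in healthy lungs, 9.92, 10.10 and 10.28 at week 1, 9.77, 9.65 and 9.97 at week 2, and 10.83, 10.78 and 11.02 at week 3. All 4 groups of this gene were tight (SD 0.12 to 0.18), and week 3 lay between the healthy arrays above and the arrays of weeks 1 and 2 below. It was 2.31-fold lower at week 1 and 2.85-fold lower at week 2 than in healthy lungs. Myl9, which encodes a regulatory light chain of myosin, had log2 signals of 10.39, 10.58 and 10.59 in healthy lungs, 9.19, 9.81 and 9.26 at week 1, 9.38, 9.42 and 9.43 at week 2, and 10.38, 9.98 and 9.86 at week 3. The week 2 arrays were nearly equal, and the highest week 1 array came within 0.05 of the lowest week 3 array. Actg2, which encodes the enteric gamma-actin of smooth muscle, had log2 signals of 8.40, 9.43 and 8.62 in healthy lungs, 7.18, 7.54 and 7.92 at week 1, 7.56, 6.91 and 7.66 at week 2, and 8.36, 8.29 and 7.95 at week 3. Here too the week 3 arrays were all below the healthy arrays, and the gap to the highest week 1 array was 0.03. Its log2 differences from healthy lungs were -1.27 at week 1 and -1.44 at week 2.

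The promoters of Acta2 and Myl9 are shown because serum response factor and TEAD factors are textbook regulators of contractile genes, in the same windows and build. Capitals mark a TEAD motif (GGAATG) in Acta2 and a CArG box in Myl9.
Acta2 promoter, chr19:34255324-34255623, minus strand: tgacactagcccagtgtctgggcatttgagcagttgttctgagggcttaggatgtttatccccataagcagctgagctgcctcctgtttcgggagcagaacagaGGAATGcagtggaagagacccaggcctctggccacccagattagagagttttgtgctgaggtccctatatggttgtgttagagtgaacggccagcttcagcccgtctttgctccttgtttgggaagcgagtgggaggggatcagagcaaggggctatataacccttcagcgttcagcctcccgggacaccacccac
Myl9 promoter, chr2:156775214-156775513, plus strand: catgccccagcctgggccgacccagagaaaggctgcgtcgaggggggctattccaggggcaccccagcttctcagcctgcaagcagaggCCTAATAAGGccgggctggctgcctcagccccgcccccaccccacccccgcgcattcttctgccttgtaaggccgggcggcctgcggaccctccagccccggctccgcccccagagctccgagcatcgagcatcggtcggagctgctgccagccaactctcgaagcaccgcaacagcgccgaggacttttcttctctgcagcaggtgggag
GGAATG was found in 14.7% of all promoters of this length. The window of Acta2 holds no exact CArG box and that of Myl9 no GGAATG. Only exact matches were searched, so stretches close to a CArG box, such as ccctatatgg and ccttgtttgg in Acta2, were not counted. For the 20 genes, 15 promoters of 14 genes were listed, and 26 motifs were searched in them. A CArG box was in 2 of 15 (Myl9 and Ppbp), AGATAA in 2 of 15, TATAAA in 2 of 15 and GGAATG in 4 of 15. CCAAT was in 7 of 15 against 37.4% of all promoters, and the GC box GGGCGG in 7 of 15 against 35.7%. The median GC content was 56.3% in the 15 and 52.7% in all.

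The 4 matrix genes encode fibrillar and filament-forming collagens, an enzyme that crosslinks elastin and a laminin chain. Col1a1, the alpha-1 chain of type I collagen, had log2 signals of 11.71, 12.07 and 11.82 in healthy lungs, 11.09, 10.85 and 10.69 at week 1, 10.82, 10.77 and 10.67 at week 2, and 12.26, 11.78 and 12.09 at week 3. It was the gene with the widest gap between the arrays of weeks 1 and 2 and the others (0.62), and it was 1.99-fold lower at week 1 and 2.16-fold lower at week 2 than in healthy lungs. Col6a3, a chain of the beaded-filament type VI collagen, had log2 signals of 10.66, 10.93 and 10.40 in healthy lungs, 9.16, 8.78 and 9.58 at week 1, 9.37, 9.45 and 8.69 at week 2, and 10.18, 9.72 and 10.09 at week 3. Its means at weeks 1 and 2 were nearly the same, and week 3 recovered only part of the difference, with every week 3 array below every healthy array.

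Loxl1 encodes a lysyl oxidase that crosslinks elastin, and had log2 signals of 10.84, 11.40 and 10.71 in healthy lungs, 9.70, 9.57 and 9.82 at week 1, 9.97, 9.71 and 9.33 at week 2, and 10.67, 10.15 and 10.26 at week 3. It had the same shape as Col6a3, with log2 differences from healthy lungs of -1.29 at week 1 and -1.31 at week 2 and a week 3 mean that was 0.66 above week 1. Lamb1, the beta-1 chain of laminin, is part of the basement membrane that ECs themselves rest on and help to make. It had log2 signals of 10.46, 10.59 and 9.92 in healthy lungs, 9.53, 9.45 and 9.78 at week 1, 9.48, 9.58 and 9.24 at week 2, and 11.48, 11.04 and 10.90 at week 3. Lamb1 took the opposite course at week 3, where all 3 arrays were above all healthy arrays. The week 3 mean was 2.94-fold above week 1 and 3.26-fold above week 2.

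Among the secreted factors, Adm encodes adrenomedullin, a vasodilator peptide that ECs make and respond to. It had log2 signals of 10.24, 10.36 and 10.03 in healthy lungs, 8.75, 8.92 and 8.94 at week 1, 9.44, 9.22 and 9.28 at week 2, and 9.997, 9.99 and 10.25 at week 3. Every week 2 array was above every week 1 array, and all groups were tight (SD 0.10 to 0.17). Adm was 2.53-fold lower at week 1 and 1.86-fold lower at week 2 than in healthy lungs. Igfbp3 encodes a binding protein of insulin-like growth factors and had log2 signals of 9.80, 9.92 and 9.71 in healthy lungs, 8.98, 9.17 and 9.06 at week 1, 9.33, 9.52 and 8.46 at week 2, and 10.20, 9.59 and 10.09 at week 3. The third week 2 array stood about 1 unit below the other week 2 arrays, and the highest of those came within 0.08 of the lowest week 3 array. Hp encodes haptoglobin, the plasma protein that binds free hemoglobin, and had log2 signals of 10.07, 11.16 and 10.17 in healthy lungs, 8.24, 8.21 and 8.81 at week 1, 9.79, 9.74 and 8.24 at week 2, and 9.81, 10.03 and 10.03 at week 3. The mean at week 1 was 4.13-fold below healthy lungs, the largest difference of any of the 20 genes at that time. At week 2 the third array was also far below the other 2 arrays, and the lowest week 3 array, at 9.81, was barely above the highest of week 2, at 9.79.

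The remaining 4 genes have no role in common. Slc2a3 encodes GLUT3, a glucose transporter of platelets, leukocytes and neurons. It had log2 signals of 9.31, 9.91 and 9.43 in healthy lungs, 8.05, 7.74 and 8.09 at week 1, 8.19, 8.76 and 8.28 at week 2, and 9.02, 9.33 and 8.99 at week 3. Like the platelet genes it was lowest at week 1, 3.00-fold below healthy lungs, and 2.20-fold below at week 2. Pdzrn3, which encodes a PDZ-domain ubiquitin ligase, had log2 signals of 10.10, 10.26 and 10.03 in healthy lungs, 8.98, 8.67 and 9.49 at week 1, 8.88, 9.03 and 8.98 at week 2, and 9.81, 9.59 and 9.86 at week 3. Nt5dc2, which encodes a protein of the 5-prime nucleotidase family, had log2 signals of 9.97, 10.17 and 9.85 in healthy lungs, 8.73, 9.68 and 8.75 at week 1, 9.58, 9.43 and 9.11 at week 2, and 10.48, 9.95 and 10.55 at week 3. Its second week 1 array was nearly 1 unit above the other two. Knstrn encodes kinastrin, a protein of the mitotic spindle, and had log2 signals of 9.35, 8.45 and 8.89 in healthy lungs, 8.39, 7.93 and 8.04 at week 1, 8.22, 7.66 and 8.16 at week 2, and 9.20, 9.13 and 10.49 at week 3. The third week 3 array was more than 1 unit above the others, and the lowest healthy array was 0.06 above the highest week 1 array.

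Between week 3 and healthy lungs, none of the 20 genes passed limma's test, against 5.01% of all genes (912 of 18193; 2.38% higher and 2.63% lower at week 3). This share is close to the background for a list of this length. The median difference was -0.08 for the 20 genes and 0.03 for all genes, with 9 means above healthy and 11 below. At an unadjusted p below 0.05 there were 7 of the 20, of which 6 were lower and 1 higher at week 3. Of all 18193 genes there were 3901, of which 1777 were lower and 2124 higher. The lowest adjusted p-values were those of Col6a3, with a log2 difference of -0.67 (standard error 0.18, limma adjusted p = 0.0911), Lamb1, with 0.82 (standard error 0.22, limma adjusted p = 0.0926), and Acta2, with -0.43 (standard error 0.12, limma adjusted p = 0.1). When all 4 groups shared 1 estimate of spread, Lamb1 passed (adjusted p = 0.0318) and the other 19 did not.

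Only the contractile genes, averaged by role, lay apart at week 3 from healthy lungs, at 9.61 to 9.86 in week 3 arrays and 9.99 to 10.48 in healthy arrays. The averages of the other roles overlapped between these groups, and the matrix genes moved both ways. Every week 3 array was below every healthy array in 7 of the 20 (Acta2, Actg2, Myl9, Col6a3, Loxl1, Pdzrn3 and Hp), which holds for 12.7% of all genes, and above every healthy array in 1 (Lamb1), which holds for 17.2%. All 3 contractile genes were among the 7, with differences of -0.43 (Acta2), -0.62 (Actg2) and -0.45 (Myl9) and standard errors of 0.12, 0.27 and 0.16. For these 7 genes the low signal at weeks 1 and 2 was thus followed by a level still under that of healthy lungs in each array, although no single gene passed the test. The myeloid and platelet genes had week 3 minus healthy differences of -0.24 (Ear3) to 0.30 (Lgals3), with standard errors of 0.15 to 0.33. A p that misses the threshold does not show that the levels were equal.

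Between week 2 and week 1, none of the 20 genes and no gene in all passed the test (0%). At an unadjusted p below 0.05 there were 4 of the 20 and 1192 of all genes, and of all 45037 probe sets 16 passed with a trended and robust variance and 1 with all 4 groups in 1 fit, none of them of the 20 genes. The 4 genes were all higher at week 2. Pf4 had a log2 difference of 0.93 (standard error 0.15, limma adjusted p = 0.271), Ppbp of 0.76 (standard error 0.15, limma adjusted p = 0.331), Adm of 0.44 (standard error 0.12, limma adjusted p = 0.47) and Slc2a3 of 0.45 (standard error 0.18, limma adjusted p = 0.674). In these 4 genes every week 2 array was above every week 1 array, which held for 6.16% of all genes, and in none of the 20 was every week 2 array below (6.94% of all genes). The myeloid, contractile and matrix genes had differences of -0.59 (Chil3) to 0.00 (Lgals3).

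**Figure D2:**
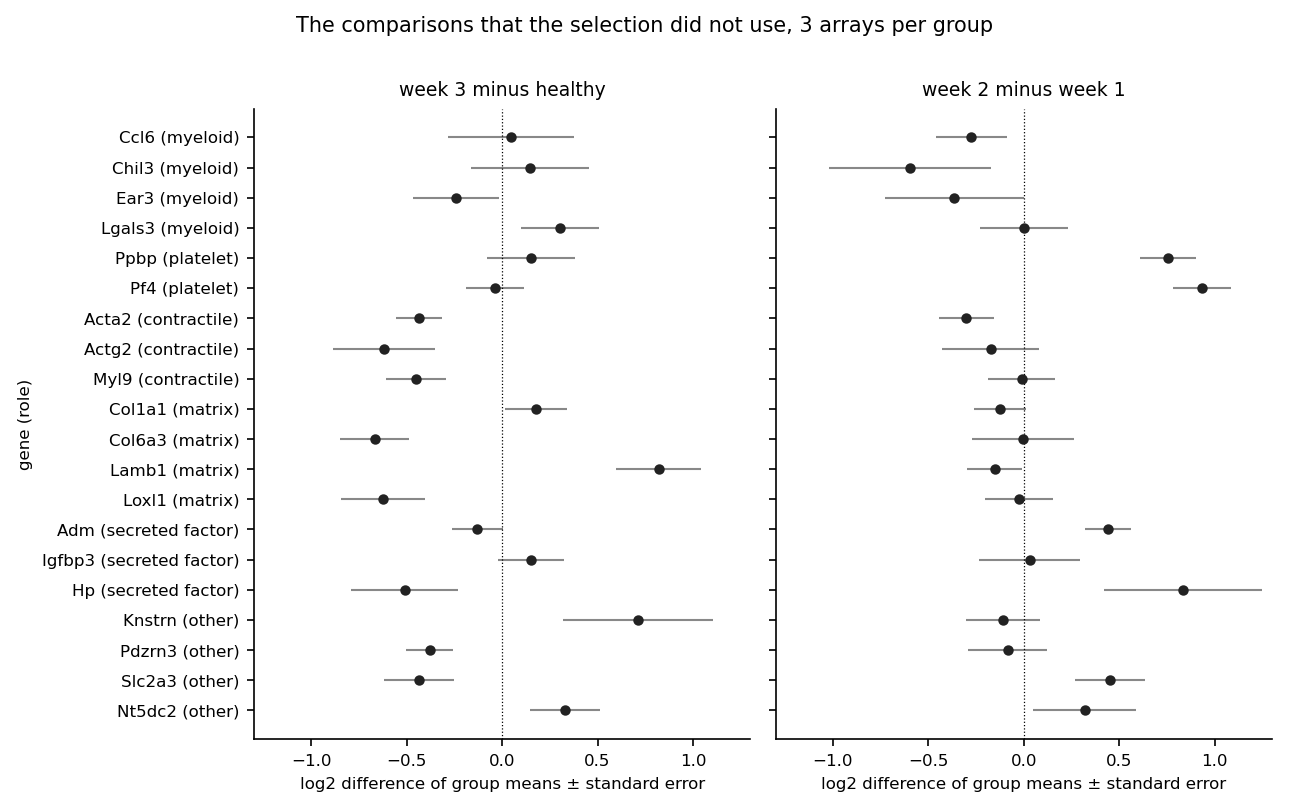
Log2 difference of group means (x axis) for each of the 20 genes (y axis, with its role) between week 3 and healthy lungs (left) and between week 2 and week 1 (right). Points are the differences and lines the standard errors from limma with 3 arrays per group; the 3 contractile genes lie left of 0 in the left panel, and Pf4, Ppbp, Adm and Slc2a3 lie right of 0 by 0.44 to 0.93 in the right panel.

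Other probe sets of the same genes, which the selection did not use, were read from the same arrays. There were 18 of them over 10 of the 20 genes, and 13 had both week 1 and week 2 means below both the healthy and the week 3 means, while 4 also had no overlap between arrays. Over all genes, 10.8% had this order, and 0.319% had no overlap and a healthy mean above the median. The other probe sets read the same genes in the same RNA and are not separate replicates. Of the 9 with a mean above the median of all values, 8 had this order and 3 had no overlap. The second probe sets of Col1a1 and Ccl6 had smallest differences of 1.04 and 0.86, and 1 of the others of Lamb1 had 0.61. Those of Adm (0.34), Igfbp3 (0.32) and Slc2a3 (0.32 to 0.45) kept the order with smaller differences. The order was lost in 5, namely 1 of the 2 others of Acta2 (-0.11), the other of Pdzrn3 (-0.13) and 3 of the 4 others of Knstrn, of which all but 1 of Knstrn had a mean below the median. The second other probe set of Acta2 kept it by 0.09. The 4 others of Knstrn had smallest differences of -0.35 to 0.17 and did not separate weeks 1 and 2 from healthy lungs, with week 1 minus healthy of -0.18 to 0.35, whereas their week 3 means were 0.65 to 1.61 above healthy lungs. The low signal of Knstrn at weeks 1 and 2 thus rests on 1 probe set of 5.

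**Figure D3:**
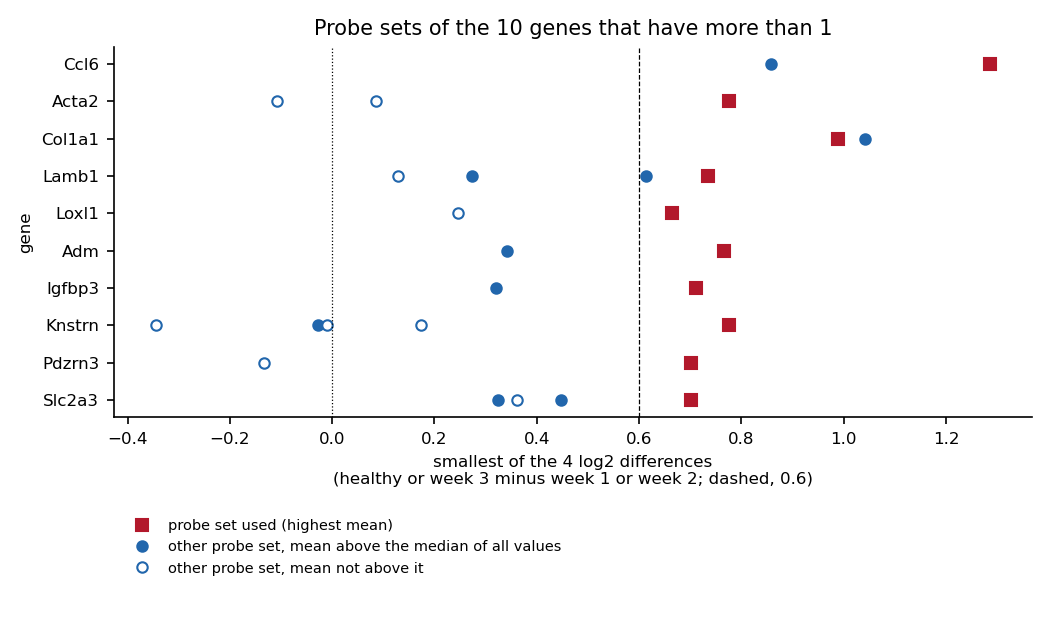
Smallest of the 4 log2 differences (x axis; healthy or week 3 mean minus week 1 or week 2 mean) for every probe set of the 10 genes that have more than 1 (y axis). Squares are the probe sets used and circles the others, filled where their mean exceeds the median of all values; the circles of Ccl6, Col1a1 and 1 of Lamb1 lie past 0.6, and those of Knstrn lie at -0.35 to 0.17.

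Markers of other cell types were read beside the 20 genes, with those genes left out of each list. Over all genes, 10.8% had both week 1 and week 2 means below both the healthy and the week 3 means. Of 12 pan-leukocyte markers, 10 had this order and 2 had no overlap between arrays (Coro1a and Tyrobp), and their median differences from healthy lungs were -0.40 at week 1, -0.42 at week 2 and 0.26 at week 3. None of the 12 passed as lower at week 1 (0.0385% of all genes) or week 2 (0.137%), and 1 passed as higher at week 3. Their mean log2 signal was 9.06 to 9.45 in healthy arrays, 8.51 to 9.14 at week 1, 8.69 to 9.15 at week 2 and 9.40 to 9.55 at week 3, so week 3 stood apart from weeks 1 and 2 and the healthy arrays did not. The linear signal summed over the list was 15199 to 17664 in healthy arrays, 13889 to 15492 at week 1, 14466 to 15762 at week 2 and 17129 to 17808 at week 3. Of 16 macrophage and monocyte markers, 5 had the order and none was without overlap, with medians of -0.10 at week 1, -0.22 at week 2 and 0.32 at week 3. Their summed signal was 17924 to 20287 in healthy arrays, 13238 to 17820 at week 1, 12414 to 16958 at week 2 and 19043 to 21259 at week 3, Chil3 included. C1qa, C1qb and Ms4a7, which mark tissue macrophages, were among the markers of this list without the order. C1qa was below healthy lungs at week 1 but not at week 2, with means of 8.01, 7.33, 8.44 and 9.49 in healthy lungs and at weeks 1, 2 and 3.

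The 16 platelet and megakaryocyte markers followed Ppbp and Pf4 more closely at week 1 than at week 2. Of these, 9 had both weeks below and none was without overlap, and the median difference from healthy lungs was -0.70 at week 1, -0.14 at week 2 and -0.05 at week 3. At week 3, 4 of the 16 were higher than at week 1 (0.649% of all genes) and 1 was higher than at week 2 (1.35%). Tubb1, the beta-tubulin of platelets, had means of 9.97, 8.11, 9.41 and 9.54, and Itga2b, the integrin that platelets use to bind fibrinogen, had 9.44, 8.44, 9.28 and 9.81. With Ppbp and Pf4 included, the summed signal of the list was 15013 to 17671 in healthy arrays, 10949 to 11141 at week 1, 13313 to 13768 at week 2 and 14996 to 17814 at week 3. The part of platelets and leukocytes in the myeloid and platelet genes was not tested.

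Fibroblast markers were low at all 3 weeks, and the median of mural markers was below healthy lungs at all 3 as well. Of 14 fibroblast markers, 3 had the order of the 20 genes, each without overlap (Col1a2, Col3a1 and Mfap5), and the medians from healthy lungs were -0.59 at week 1, -0.92 at week 2 and -1.08 at week 3, where 9 of 14 were lower (2.63% of all genes). The mean log2 signal of these markers was 11.41 to 11.46 in healthy arrays and no more than 10.88 in any array of the 3 weeks. Of 15 pericyte and smooth muscle markers, 6 had the order and none was without overlap, with medians of -0.52, -0.51 and -0.42, and 4 were lower at week 3. The summed signal of the pericyte and smooth muscle list was 15008 to 16610 in healthy arrays, 7958 to 9592 at week 1, 8864 to 9959 at week 2 and 9861 to 11279 at week 3, Acta2 and Actg2 included. That of the fibroblast list was 61041 to 63813 in healthy arrays, 38119 to 43345 at week 1, 30680 to 38104 at week 2 and 37226 to 41730 at week 3, Col1a1 included. The part of these cells in the matrix and contractile genes was not tested. Pan-endothelial markers did not move in this way, with 1 of 21 in that order and a mean of 12.87 to 12.999 in all arrays.

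The medians of 4 epithelial marker lists were below healthy lungs at all 3 weeks, and some of their genes had a high signal in spite of the sort. Sftpc, which encodes surfactant protein C of alveolar type 2 cells, had means of 13.53, 12.81, 12.87 and 12.94 in healthy lungs and at weeks 1, 2 and 3, and Scgb1a1, the secretoglobin of airway club cells, had 12.36, 10.17, 9.97 and 10.90. Of 13 alveolar type 2 markers, 7 had the order of the 20 genes and none was without overlap, with medians from healthy lungs of -1.11 at week 1, -1.01 at week 2 and -0.91 at week 3, where 6 were lower. Of 11 airway secretory markers, 5 had the order and none was without overlap, with medians of -1.55, -1.31 and -0.30. Of 10 alveolar type 1 markers 1 had it (medians -0.89, -0.72 and -1.11), and of 12 airway ciliated markers 3 (medians -0.17, -0.18 and -0.19). The summed signal of the alveolar type 2 list was 36568 to 38935 in healthy arrays, 16229 to 24606 at week 1, 16400 to 32147 at week 2 and 22537 to 27820 at week 3. That of the airway secretory list was 12882 to 25799 in healthy arrays, 5818 to 5974 at week 1, 4243 to 9771 at week 2 and 6960 to 10280 at week 3. By mean log2 signal, the second healthy array was the highest healthy array of the airway secretory list and the third week 2 array its lowest of week 2, as they were for Hp. In the other groups the airway secretory list and Hp ran in opposite order. The third week 1 array was the lowest of week 1 for the list (8.28) and the highest for Hp (8.81). The first week 3 array was the highest of week 3 for the list (9.19) and the lowest for Hp (9.81). In the alveolar type 2 list the third array was the highest of week 1 (10.02) and the lowest of week 2 (9.41), as for Hp. Its highest arrays in healthy lungs (10.78) and at week 3 (10.16) were the first ones, unlike for Hp. The part of epithelial cells in the 20 genes was not tested.

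**Figure D4:**
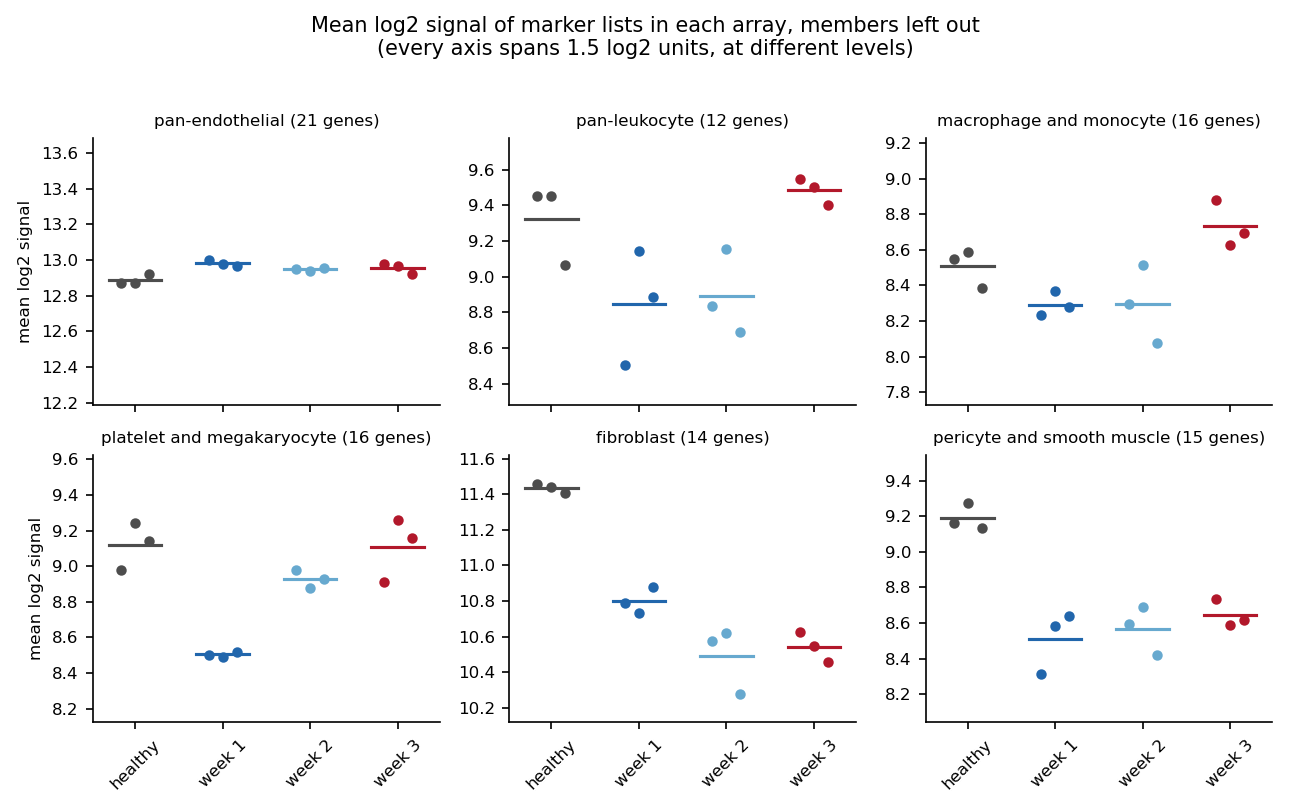
Mean log2 signal (y axis, 1.5 units tall in every panel but at different levels) of 6 marker lists without the 20 genes, in healthy lungs and at weeks 1, 2 and 3 (x axis), with 1 point per array and a bar at each group mean. The pan-leukocyte points of week 3 (9.40 to 9.55) lie above those of weeks 1 and 2 (8.51 to 9.15), the platelet points of week 1 (8.49 to 8.52) lie below all others, the fibroblast points of all 3 weeks lie below those of healthy lungs (11.41 to 11.46), and the pan-endothelial points stay at 12.87 to 12.999.

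A list of 31 TGF-beta and matrix genes, which did not include the selected matrix genes other than Lamb1 and had it left out here, shared the order of the 20 genes in part. Of the 31, 16 had both weeks below (10.8% of all genes). Of those, 4 were without overlap (0.319% of all genes), namely Fn1, Col5a2, Lama4 and Sparc. The medians from healthy lungs were -0.11 at week 1, -0.19 at week 2 and 0.03 at week 3. They were smaller than those of the 20 genes, -1.26 at week 1 and -1.13 at week 2. At week 3, 7 of the 31 were higher than at week 2 by the test (1.35% of all genes). Fn1, which encodes fibronectin, had means of 11.51, 10.96, 10.74 and 12.15 in healthy lungs and at weeks 1, 2 and 3. In the list of hypoxia and glycolysis genes, to which Adm belongs, 3 of the other 20 had the order, with medians of -0.05, 0.05 and 0.12.

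The myeloid genes varied together among arrays of the same group, the matrix genes did so in part, and the contractile genes less. Deviations from the group means over the 12 arrays correlated with a median r of 0.60 over the 19 pairs of genes with the same role (range 0.02 to 0.84) and 0.16 over the 101 pairs with different roles (range -0.69 to 0.78), the 4 genes without a common role left out. The 6 pairs among those 4 gave a median of -0.15. The median was 0.66 over the 6 pairs of myeloid genes (range 0.48 to 0.84). It was 0.67 over the 6 pairs of matrix genes (range 0.30 to 0.80). It was 0.42 over the 3 pairs of secreted factors and 0.27 over the 3 pairs of contractile genes. For Ppbp with Pf4, r was 0.49. Among the contractile genes, r was 0.66 for Acta2 with Actg2, 0.27 for Actg2 with Myl9 and 0.02 for Acta2 with Myl9. Myl9 had a higher r with the myeloid gene Ear3 (0.74). Col1a1 had 0.71 with the myeloid gene Lgals3, against 0.30 with Lamb1, 0.34 with Col6a3 and 0.63 with Loxl1. With Hp, r was 0.78 for Col6a3 and 0.74 for Loxl1, near the 0.80 of Col6a3 with Loxl1. Contractile with matrix genes gave a median of 0.08. All pairs share the same 12 arrays, and these values are a description.

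Array controls were read for the same pattern. Of 64 control probe sets, 2 (3.125%) were lower in every week 1 and 2 array than in every healthy and week 3 array. For genes, where the healthy mean also had to exceed the median, this share was 0.319%. Both control probe sets report the 5-prime end of the Phe spike, an RNA added to each sample in a known amount. Their smallest differences were 0.34 and 0.45, short of 0.6. A probe set of the Dap spike had a larger smallest difference, 0.47, but its arrays overlapped. All Dap probe sets were highest in healthy arrays 1 and 3 and week 3 array 1. A 3-prime Dap probe set was at 12.04, 11.86 and 12.47 in these arrays. In the remaining arrays, which include all those of weeks 1 and 2, it was at 10.70 to 10.98. No control probe set was higher in every week 1 and 2 array. The part of such an offset in the 20 genes was not tested. The 3-prime minus 5-prime difference of Gapdh, a measure of RNA integrity, was 0.37 to 0.69 in healthy arrays, 0.42 to 0.53 at week 1, 0.30 to 0.41 at week 2 and 0.24 to 0.40 at week 3. That of beta-actin was 0.06 to 0.21, 0.07 to 0.14, 0.03 to 0.15 and 0.02 to 0.08, so weeks 1 and 2 did not stand apart from both other groups in either. The labels give no hybridization or scan batch.

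The limit of 0.6 separates genes of nearly the same behavior. Just inside it were Pf4 (0.61), Nt5dc2 (0.62), Myl9 (0.65), Actg2 (0.65) and Loxl1 (0.66). Just outside it, meeting every other condition, were Axl (0.59), which encodes a receptor tyrosine kinase, Fn1 (0.55), Col5a2 (0.54), Gsto1 (0.54) and Tes (0.54). Membership also depended on single arrays. With each array left out in turn, 16 to 29 genes met the rule, and 8 of the 20 met it every time (Acta2, Adm, Ccl6, Chil3, Col1a1, Ear3, Lamb1 and Ppbp). Without the third week 2 array, which was the lowest week 2 array of Hp, Igfbp3, Col6a3, Loxl1 and Nt5dc2, these genes were lost. Without the third healthy array, 9 genes were gained, among them the leukocyte genes Cd53, Laptm5, Tyrobp and Ccl9. That array had a mean of 9.06 for the pan-leukocyte list, where the other 2 healthy arrays had 9.45.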

How the data were processed

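RNA of sorted ECs was labeled with a 3-prime amplification kit for very small inputs and hybridized to Affymetrix GeneChip mouse genome arrays. The authors processed the raw files with robust multiarray average in Chipster, and the deposited log2 values, 1 per probe set and array, were used without further normalization. A 3-prime array with amplified RNA compresses low signals and can cross-hybridize between related genes. Of 45101 probe sets, 64 controls were set aside. Of the others, 34945 carry 1 symbol in the platform annotation, 932 several and 9160 none, and each of 18193 genes was read from its single-symbol probe set of highest mean. Each pair of groups was fitted on its own in limma 3.58.1 (R 4.3.3), two-sided, with Benjamini-Hochberg correction over 45037 probe sets and a threshold of 0.05, after a test on simulated data. The p-values measure the spread between 3 arrays per group. Python 3.11.15 with pandas 2.3.3 and matplotlib 3.10.9 did the rest. Of the 20 genes, 19 were found in RefSeq by gene ID, and Ear3 keeps the name of the annotation. All 20 genes are named by rule, with the 5 nearest on each side of the limit. The members and lists were chosen with earlier results of these data known. The roles, the CArG box letters and the promoters shown were set after the members were seen, and the remaining names after their values were seen. The precision is limited by the number of arrays.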

Additional observations from a re-analysis of the deposited data

How the results depend on the processing

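The number of genes that met the rule was 20 as deposited, and all 20 remained when the values were quantile-normalized again or centred on array medians. It was 29 at a difference of 0.5, 5 at 0.8 and 3 at 1.0, where Ccl6, Chil3 and Ear3 were left. With genes read as the mean of their probe sets it was 15, of which 12 were among the 20, and without probe sets marked as shared between transcripts it was 16, without Acta2, Adm, Ear3 and Slc2a3. With no condition on the healthy mean it was 22. Leaving out each array gave 16 to 29. For week 3 against healthy lungs, 1 of the 20 passed with all 4 groups in 1 fit (Lamb1) and 0 in each of the other alternatives, single arrays left out included. For week 2 against week 1, 0 passed in every alternative. With the replicate number as a block, 0 of the 20 passed in either comparison, and of all probe sets 783 in place of 1926 passed at week 3 against healthy lungs. The labels do not say whether the number is a pairing. In these comparisons, same-numbered arrays had an r of -0.09 to 0.04 in their deviations over genes. In 1 case of 6 the own number gave the highest r, and so few cases cannot exclude a pairing. The differences that chose the genes kept their direction, which the selection itself fixes when arrays are left out. Of the tested differences, none past the threshold, week 3 minus healthy turned sign in 7 cases and week 2 minus week 1 in 20. With the mean of a gene's probe sets these were -0.0948 for Ccl6 at week 3, and -0.0431 for Igfbp3 and 0.00928 for Loxl1 at week 2. With array weights it was 0.0740 for Myl9 at week 2. Leaving out arrays gave, for week 3 minus healthy, -0.12 to 0.0907 for Pf4, -0.28 to 0.29 for Ccl6, -0.0484 to 0.45 for Chil3 and -0.0293 to 0.41 for Ppbp. For week 2 minus week 1 it gave -0.21 to 0.0692 for Knstrn, -0.18 to 0.35 for Igfbp3, -0.77 to 0.00956 for Ear3, -0.13 to 0.18 for Myl9, -0.20 to 0.24 for Col6a3, -0.22 to 0.14 for Lgals3, -0.27 to 0.14 for Pdzrn3, -0.18 to 0.15 for Loxl1 and -0.36 to 0.0596 for Actg2. The cause was not tested. The smallest difference moved by more than the spread between replicates in 7 cases and by less in 312, and all 7 used other probe sets. The 3 arrays per group limit what the tests can show, and the signal over background of single probe sets is not known from these values.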
